A study of Arabidopsis thaliana with 27 samples.

Results

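The genes described here are 123 Arabidopsis thaliana loci whose transcripts were scarce or not listed in the egg cell and were then found in every library from the 14 hour zygote to the 1-cell embryo. They were chosen by measured values: FPKM (sequenced fragments per kilobase of transcript, scaled to library size) under 1 in all 3 egg cell libraries and at least 5 in each of the 9 libraries of Zy14, Zy24 and 1C. They are 123 of 24607 loci listed in at least 1 of the 27 libraries, and 90 of them were listed at 0 in all 3 egg cell libraries. Because these 4 groups chose the genes, their values in those groups are a description and carry no test. The 12 libraries from crosses between accessions took no part in the choice, and the tests below are made there.

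RNA of 9 groups of 3 libraries was sequenced from plants grown in long days at 22 °C. In the accession Columbia (Col) these were mature egg cells (EC), zygotes 14 hours (Zy14) and 24 hours (Zy24) after pollination, 1-cell embryos (1C) and 32-cell embryos (32C). LZy24 and LZy14 were hybrid zygotes from a Ler (Landsberg erecta) mother pollinated by Col, at 24 and 14 hours after pollination. CZy24 and CZy14 were the reciprocal hybrids, from a Col mother pollinated by Ler, at the same hours. No transgene, mutant or treatment is named for any group. The values do not separate the maternal from the paternal allele, and how Ler sequence differences affect counting against the TAIR10 build was not tested. The labels do not say whether replicates came from separate plants or pools, so p-values measure the spread between these libraries only.

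In flowering plants the egg cell carries a store of maternal RNA, and after fertilization the zygote begins to transcribe its own genome. The Arabidopsis zygote elongates and divides unequally into a small apical cell, which forms most of the embryo, and a large basal cell, which forms the suspensor. This asymmetry is known to depend on a MAP kinase cascade headed by YODA and on homeodomain proteins of the WOX family, while AP2 domain proteins such as BBM and PLT2 promote embryonic growth.

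Some libraries stood apart. LZy14 replicate 3 lay between replicates 1 and 2 for 88.3% of 8436 genes of at least 20 FPKM and was matched by a weighted sum of the other pair (weights 0.545 and 0.457) with a median absolute log2 error of 0.0399. For every other library in turn, set against the remaining pair of its group, that share was at most 60.6% and the error at least 0.0997. The values as deposited were tested with all 3 LZy14 libraries, and each count of members and printed p-value of a contrast with LZy14 is also given without replicate 3, other than under another scaling or a replicate block, where all 3 were kept. Zy14 replicate 3 held the 123 genes at 0.444% of its summed FPKM, against 0.964% and 1.07% in replicates 1 and 2. Without that library the same rule takes 191 loci. CZy14 replicate 3 also differed from its group, with 95 of the 123 genes at 5 FPKM or more, against 109 and 111 in replicates 1 and 2. The stage labels were checked against 7 egg cell marker genes, which summed to 94617 to 146370 FPKM in EC, 12182 to 23247 in Zy14, 17.5 to 35.7 in Zy24, 18.6 to 26.7 in 1C and 0.9 to 3.19 in 32C, so that they did not separate Zy24 from 1C. In the hybrids the same markers summed to 54.3 to 74.4 FPKM in LZy24, 11979 to 23119 in LZy14, 39.5 to 43.5 in CZy24 and 12264 to 18562 in CZy14. A list of 6 seed coat and integument genes summed to at most 3.91 FPKM in every group other than 32C, where it reached 14.4 to 16.3. A list of 3 synergid markers, for the cells that flank the egg cell, summed to 2.04 to 134 FPKM in EC and 0 to 517 in Zy14, through EC replicate 3 (LURE1.2 at 65.8 and DD31 at 57.9 FPKM) and Zy14 replicate 1 (300.3 and 214 FPKM). Both libraries entered the rule, which takes 177 loci without EC replicate 3 and 126 without Zy14 replicate 1. A list of 7 central cell and endosperm genes summed to at most 2.38 FPKM in EC, 6.15 to 13.6 in Zy14 and 1.21 to 10.6 in Zy24. It summed to 0.81 to 8.17 FPKM in 1C and 4.93 to 6.72 in 32C. In the hybrids it held 14.3 to 16.4 FPKM in LZy24, against 1.93 to 6.58 in LZy14. It held 3.66 to 9.58 FPKM in CZy24, against 1.99 to 15.9 in CZy14. In LZy24 its gene AGL62 held 10.9, 14.3 and 10.2 FPKM. The part of synergid or endosperm RNA in the members' values was not tested.

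Of the 123 loci, 122 are protein coding. They include 5 genes of the lists of zygote and embryo regulators: WOX9, MKK5 and ICE1 (SCRM) among 19 genes of zygote polarity, and BBM and PLT2 among 22 genes of embryo patterning. No member was among the 6 embryo maturation regulators or the 15 auxin transport, synthesis and response genes. The 250 bases before the annotated start are shown for the 4 transcription factors, because the results below turn on these regulators, and for DAF1, which had the highest level of all 123 genes at 14 hours. The sequences were read 5′ to 3′ on the gene's own strand from RefSeq's copy of TAIR10.1. The windows are chr5:5745749-5745998 (minus strand) for BBM, chr1:18976926-18977175 (plus strand) for PLT2, chr2:14343797-14344046 (minus strand) for WOX9, chr3:9835280-9835529 (minus strand) for ICE1 and chr3:23031281-23031530 (plus strand) for DAF1, and none of them overlaps another annotated gene. Capitals mark matches on either strand to the motifs searched.
BBM: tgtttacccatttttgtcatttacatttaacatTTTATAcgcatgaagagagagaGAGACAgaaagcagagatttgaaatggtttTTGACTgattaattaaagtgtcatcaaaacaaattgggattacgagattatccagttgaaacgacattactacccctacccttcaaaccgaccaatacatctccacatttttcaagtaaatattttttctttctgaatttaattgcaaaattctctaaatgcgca
PLT2: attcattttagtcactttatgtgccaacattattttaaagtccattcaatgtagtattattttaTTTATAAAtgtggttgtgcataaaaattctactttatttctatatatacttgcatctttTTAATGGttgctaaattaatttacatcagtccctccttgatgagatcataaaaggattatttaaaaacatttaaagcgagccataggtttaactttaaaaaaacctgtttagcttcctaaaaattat
WOX9: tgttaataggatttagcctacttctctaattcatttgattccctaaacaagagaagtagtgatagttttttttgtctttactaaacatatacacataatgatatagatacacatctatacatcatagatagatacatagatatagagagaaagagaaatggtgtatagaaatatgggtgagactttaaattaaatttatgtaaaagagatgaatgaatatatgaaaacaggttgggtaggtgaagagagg
ICE1 (SCRM): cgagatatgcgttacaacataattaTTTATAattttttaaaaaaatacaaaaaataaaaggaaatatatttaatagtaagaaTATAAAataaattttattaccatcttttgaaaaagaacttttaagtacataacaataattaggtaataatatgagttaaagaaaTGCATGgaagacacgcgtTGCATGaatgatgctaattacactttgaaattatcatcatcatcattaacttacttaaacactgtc
DAF1: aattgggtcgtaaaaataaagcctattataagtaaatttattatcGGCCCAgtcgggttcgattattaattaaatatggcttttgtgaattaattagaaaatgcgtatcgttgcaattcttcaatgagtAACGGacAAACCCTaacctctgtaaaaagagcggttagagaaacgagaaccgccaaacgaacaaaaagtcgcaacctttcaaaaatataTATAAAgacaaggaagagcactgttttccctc

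The motifs searched, each on both strands, were the TATA box as TATAAA, the G-box as CACGTG and the W-box as TTGACC or TTGACT. Others were the auxin response element TGTCTC, the TCP site TGGGCC, the telo-box AAACCCT and the homeodomain site TTAATGG of the WUS type. The last were the RY element core CATGCA, the M-phase element core AACGG, the E2F site TTCCCGC and the GCC box GCCGCC. BBM held a reverse TATAAA, a reverse TGTCTC starting 195 bases before the gene and a TTGACT at 165 bases. PLT2 held 2 overlapping TATAAA matches and a TTAATGG 127 bases before the start. ICE1 held a TATAAA on each strand, at 225 and 168 bases, and 2 reverse CATGCA matches at 84 and 66 bases, the core of the element bound by B3 factors of embryo maturation. WOX9 held none of these letters in its window, which says only that they are not there. DAF1 held a reverse TGGGCC at 205 bases, an AACGG at 121, an AAACCCT at 114 and a TATAAA on its own strand at 32 bases. Over the 122 protein coding members, TGGGCC was in 7.38% of windows, against 25.7% of the 7661 coding genes that held at least 5 FPKM in every EC, Zy14, Zy24 and 1C library and 13.7% of all 27443 coding genes. CATGCA was in 11.5% of member windows, against 5.44% of those expressed throughout and 8.43% of all coding genes. TATAAA was in 54.1%, against 44.8% and 47.4%, and TTGACT in 23.8%, against 17.5% and 19.1%. The homeodomain site was in 4.92% of member windows, against 9.03% and 6.99%, the telo-box in 4.92%, against 8.37% and 7.33%, and the G-box in 9.84%, against 7.40% and 6.49%. TTGACC was in 15.6%, against 12.05% and 12.2%, the auxin response element in 10.7%, against 9.70% and 10.95%, and the M-phase element core in 22.9%, against 24.3% and 20.6%. The GCC box was in 3.28%, against 2.30% and 1.87%, and the E2F site in 0.820%, against 1.096% and 1.21%. These shares are descriptions. Median GC was 29.2% in member windows, against 32.0% in genes expressed throughout and 31.2% in all coding genes.

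Exons were counted in the 122 coding members, 7661 coding genes expressed throughout and 23471 coding genes listed. By the transcript with the fewest exons, the median number was 3 in members, against 6 and 4. A single exon in every transcript was found in 18.9% of the members, against 5.34% and 16.6%. Words for transcription or chromatin in the product description applied to 21 of the 123 (17.1%), against 7.77% of 24511 annotated loci. Of these 21, 4 are RING, PHD or CCCH zinc finger proteins, which need not bind DNA. Few members lay side by side: AT1G77145 and AT1G77160, both of the DUF506 family, lie on chromosome 1 with 1 coding gene between them, DAF1 and the phosphatase gene AT3G62260 lie on chromosome 3 with 2 between them, and PDC2, a pyruvate decarboxylase, is next to AT5G54970 on chromosome 5. A gene on the opposite strand overlapped 23 members (18.7%), against 29.75% of loci expressed throughout and 25.8% of all annotated loci listed. The library kit named does not mark strand, so reads of such pairs cannot be told apart. One such pair is TY1, a plastid thioredoxin, and the egg cell gene EC1.1. TY1 was listed at 0.08 to 0.36 FPKM in EC, where EC1.1 held 21833 to 32564 FPKM, and at 25.3 to 33.5 FPKM in Zy14.

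In Col the set was highest at 24 hours. The median over the 123 genes of the mean FPKM was 27.01 in Zy14 and 54.9 in Zy24, then 27.1 in 1C and 28.7 in 32C. Their share of summed FPKM averaged 0.825% ± 0.334 in Zy14 and 1.47% ± 0.0723 in Zy24, then 0.916% ± 0.0175 in 1C and 1.22% ± 0.0758 in 32C (SD, n = 3 each). The mean was highest in Zy24 for 65 genes, in 32C for 27, in 1C for 19 and in Zy14 for 12. That count was not made for other loci. The 7719 loci expressed throughout also had their highest median at 24 hours, with 46.1 FPKM. Their medians at the other stages were 43.3 FPKM (Zy14), 41.05 (1C) and 36.1 (32C). Over all 24607 loci the median was instead highest at 14 hours, at 6.65 FPKM, against 5.11 at 24 hours.

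**Figure D1:**
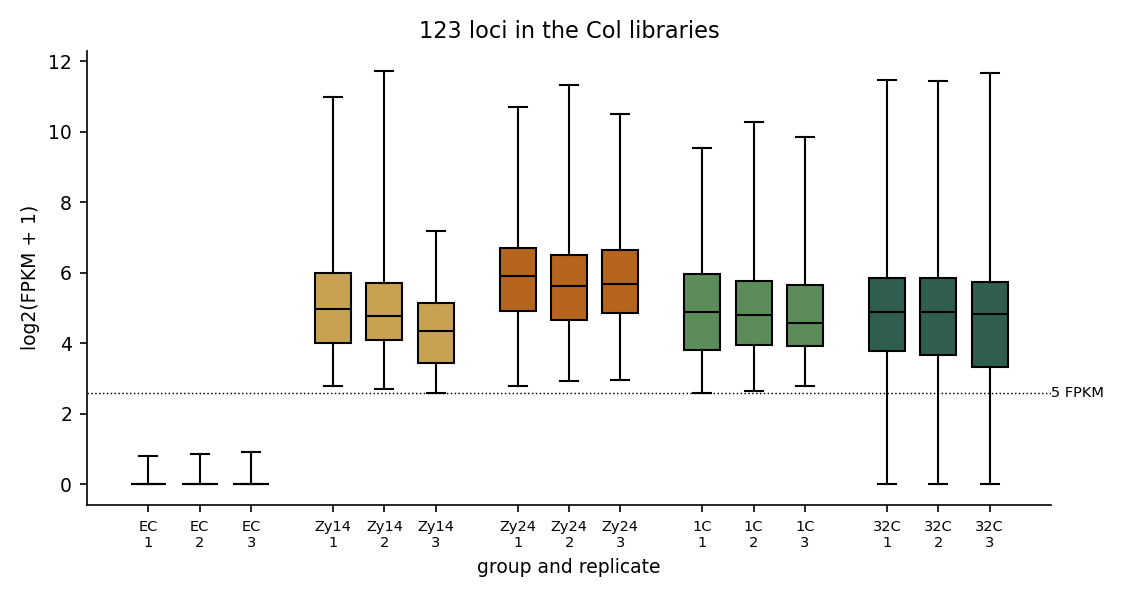
Levels of the 123 genes, as log2(FPKM + 1), in each of the 15 Col libraries. Boxes span the quartiles with the median as a line, whiskers reach the lowest and highest gene, and the dotted line marks 5 FPKM; the EC boxes lie at 0 and the Zy24 boxes are highest, with library medians of 48.8 to 58.9 FPKM.

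Counting a step only where the means differed at least 2-fold on the log2(FPKM + 1) scale and the groups did not overlap, 60 genes were higher and 5 lower in Zy24 than in Zy14, where 17.2% of 16105 loci were higher and 21.1% lower. From Zy24 to 1C, 9 genes were higher and 53 lower in 1C, where 18.7% and 17.3% of 15516 loci were. These groups chose the genes, so the counts describe the set and are no test of it. By this measure 28 genes were higher in Zy24 than in both Zy14 and 1C, AT3G50090, AT1G62410 and AT5G15240 among them, where 6.99% of 14753 loci were. The measure leaves out 32C: the mean of 25 of the 28 was highest in Zy24, and that of AT4G33145, AT4G33540 and COL4 was highest in 32C. AT3G50090, of the exonuclease family, held 132, 158 and 52.5 FPKM in Zy14, 1098.5, 735 and 702 in the Zy24 libraries and 247, 120.1 and 150.1 in 1C. AT1G62410, a MIF4G domain protein of the kind that binds translation factors, held 73.1, 119.9 and 34.4 FPKM in Zy14, 730.5, 557 and 536 in Zy24 and 122, 124 and 143 in 1C. In both genes every Zy24 library was above every Zy14 and 1C library.

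At 32 cells 100 of the 123 genes (81.3%) still held at least 5 FPKM in all 3 libraries, as did 49.8% of all 24607 loci. Of the 7719 loci expressed throughout, 96.9% did, a larger share than of the members. In libraries of whole embryos, fewer expressing cells and less RNA per cell cannot be told apart. Between 1C and 32C, 21 genes were at least 2-fold higher and 32 lower in 32C with no overlap, where 16.1% and 11.1% of 16211 loci were. Since 1C entered the choice through its floor of 5 FPKM, these are descriptions too. The 6 genes under 1 FPKM in all 3 32C libraries were DAF1, AT4G16030 of the L19e ribosomal protein family, the lipase-like AT5G03610, AT5G18130, the chaperone regulator BAG1 and the ACT domain protein ACR1, where 32.7% of all loci were under 1. Of the loci expressed throughout, 0.298% were under 1. DAF1, AT4G16030 and AT5G18130 were listed at 0 throughout 32C.

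The genes with the lowest 32C minus 1C difference were AT5G15240, an amino acid transporter family member, AT5G03610, AT1G77145, ACR1 and NF-YC7, a histone-fold subunit of the CCAAT-binding factor NF-Y, with log2(FPKM + 1) differences of -4.51, -4.45, -4.33, -4.17 and -3.88. AT5G15240 held 0.05, 0.52 and 1.17 FPKM in 32C, against 56.3, 20.1 and 33.2 in 1C. NF-YC7 held 4.06, 0.99 and 0.10 FPKM in 32C, against 17.98, 59.2 and 29.8 in 1C. Both were low in every 32C library. At the other end stood the uncharacterized AT5G65480 (overlapped by AT5G65490 on the opposite strand), AT4G33660 (a cysteine-rich membrane protein family linked to stress tolerance), AT5G42050 (a DCD domain protein), the heat shock factor HSFB2A and the zinc finger repressor ZF2 (AZF2), with differences of 3.16, 3.09, 2.59, 2.39 and 2.38. HSFB2A held 109, 22.1 and 114 FPKM in Zy14 and 12.5, 6.60 and 6.84 in Zy24. It held 12.03, 13.1 and 9.62 FPKM in 1C and 73.8, 61.6 and 59.3 in 32C. Leaving out the egg cell, it was thus lowest at Zy24 and 1C. Of the 53 genes lower in 1C than in Zy24, 13 (24.5%) were higher again in 32C, as were 20.4% of the 2682 loci lower in 1C.

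**Figure D2:**
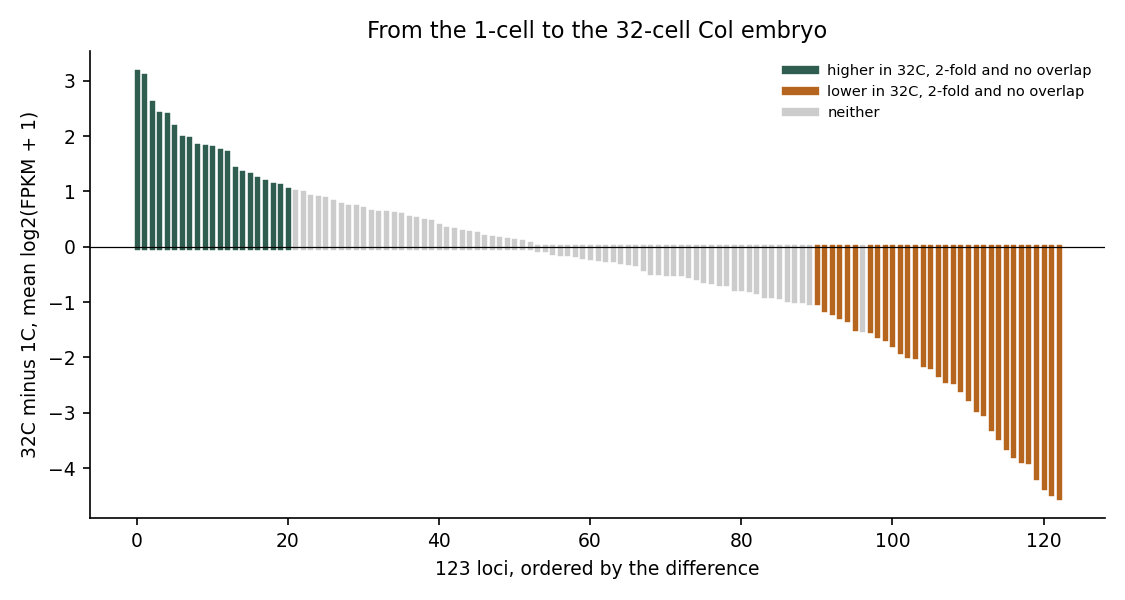
Difference between 32C and 1C in mean log2(FPKM + 1) for each of the 123 genes, ordered from the highest to the lowest. Coloured bars mark the 21 genes higher and the 32 genes lower in 32C by at least 2-fold with no overlap between the 3 libraries of each group; differences run from 3.16 for AT5G65480 to -4.51 for AT5G15240.

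Regulators of zygote polarity and embryo growth were among the genes that the rule took as on from 14 hours. WOX9, a homeodomain gene of the basal lineage (chr2:14341355-14343796 in TAIR10.1, minus strand), held 115, 111 and 18.4 FPKM in Zy14, 175, 232 and 276 in Zy24, 308, 361 and 316 in 1C and 151, 152 and 189 in 32C, and was listed at 0 in EC. BBM (chr5:5742393-5745748, minus strand), an AP2 domain factor that can induce embryos when expressed ectopically, held 198, 158 and 66.1 FPKM in Zy14, 174, 228 and 217 in Zy24, 224, 201 and 203 in 1C and 122, 121 and 129 in 32C. Its relative PLT2 (chr1:18977176-18980618, plus strand), known from the root meristem, held 115, 75.6 and 48.7 FPKM in Zy14, 93.2, 99.0 and 108 in Zy24, 86.8, 65.7 and 81.7 in 1C and 30.3, 37.2 and 50.5 in 32C. All 3 were lower in 32C than in 1C in every library.

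In the hybrids the 3 genes were on at both hours, with differences in detail. WOX9 held 173, 229 and 142 FPKM in LZy24, 137, 102 and 119 in LZy14, 83.8, 86.1 and 76.0 in CZy24 and 180, 187 and 31.1 in CZy14, and no contrast passed the threshold (LZy24 against CZy24, log2 change of 1.11, SE 0.51, limma adjusted p = 0.122). BBM was lower in LZy24 (83.7, 80.4 and 93.4 FPKM) than in CZy24 (194, 184 and 162), a log2 change of -1.06 (SE 0.27, limma adjusted p = 0.0112, lower in 3 of 3 libraries). PLT2 was lower in LZy24 (39.9, 60.4 and 41.3 FPKM) than in LZy14 (95.6, 122 and 105), a log2 change of -1.19 (SE 0.22, limma adjusted p = 0.000863, or 0.00405 without LZy14 replicate 3). In CZy24 PLT2 held 85.2, 100 and 83.9 FPKM, against 69.7, 61.6 and 107 in CZy14, and its change over time differed between the crosses (log2 difference of -1.39, SE 0.31, limma adjusted p = 0.00692, or 0.0191 without LZy14 replicate 3).

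MKK5, a MAP kinase kinase acting downstream of YODA, held 16.5 to 18.8 FPKM in Zy14, 10.02 to 17.3 in Zy24, 7.67 to 17.3 in 1C and 21.1 to 26.0 in 32C. In the hybrids it held 26.1 to 31.9 FPKM in LZy24, 17.95 to 30.8 in LZy14, 14.3 to 51.7 in CZy24 and 15.2 to 25.9 in CZy14, and none of the 5 contrasts in the hybrids called it. MKK5 overlaps AT3G21230 on the opposite strand. ICE1, also named SCREAM, is a bHLH factor known from cold response, stomata and seed development (chr3:9832667-9835279, minus strand). It was listed at 0, 0 and 0.21 FPKM in EC and held 35.3, 16.4 and 15.7 in Zy14, 300.03, 197 and 253 in Zy24, 285, 278 and 315 in 1C and 192, 207 and 177 in 32C. In the hybrids ICE1 held 546, 628 and 508 FPKM in LZy24, against 0, 0 and 0.03 in LZy14, and 832, 734 and 610 in CZy24, against 0.68, 0.14 and 6.22 in CZy14. It was at most 6.22 FPKM at 14 hours in both crosses, under every Zy14 library of Col, and it had the largest rise of the 123 genes in both crosses (log2 change of 9.12, SE 0.50, limma adjusted p = 7.54e-08 in LZy, or 1.03e-06 without LZy14 replicate 3, and 8.23, SE 0.50, limma adjusted p = 1.60e-07 in CZy).

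The rest of the polarity list gives the setting. Of its 19 genes, all tested, 3 were higher and 7 lower in LZy24 than in LZy14, where 18.3% and 19.8% of all genes tested were, and the counts were the same without LZy14 replicate 3. In CZy24 against CZy14, 3 were higher and 5 lower, where 20.0% and 25.2% of all genes were. WOX2, BSK1 and ICE1 (SCRM) were the 3 higher genes in both crosses. WOX8, the close relative of WOX9, was already present in EC at 135 to 226 FPKM and so is no member. WOX2, the apical homeodomain gene, missed the rule through Zy14, where it held 3.02, 3.63 and 5.97 FPKM. Of the 22 patterning genes 11 could be tested, of which 5 were higher and 2 lower in LZy24 than in LZy14, and 3 were higher and 1 lower in CZy24 than in CZy14, beside the same shares of all genes. Without LZy14 replicate 3, 10 could be tested, with 5 higher and 1 lower in LZy24. PDF2, an epidermal homeodomain gene of that list, lay just outside the rule with 4.90 FPKM in Zy14 replicate 3.

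**Figure D3:**
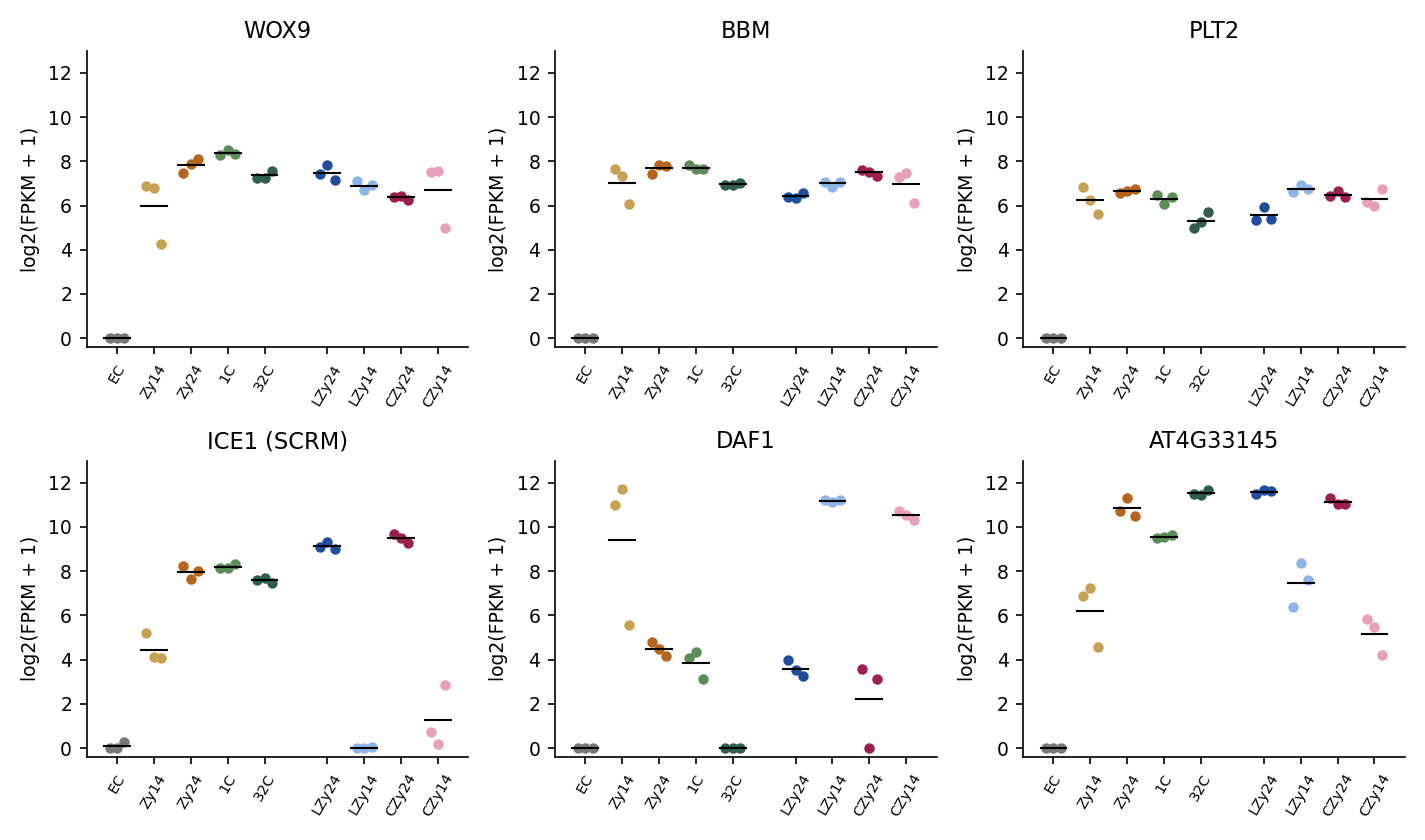
Levels of WOX9, BBM, PLT2, ICE1 (SCRM), DAF1 and AT4G33145 as log2(FPKM + 1) in all 27 libraries. Points are libraries in replicate order and bars are group means; ICE1 is at least 508 FPKM in every LZy24 and CZy24 library and at most 6.22 FPKM in LZy14 and CZy14, while DAF1 is at most 15.03 FPKM in LZy24 and CZy24 and at least 1288 FPKM in LZy14 and CZy14.

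Some of the most abundant members are little known genes. AT4G33145, annotated only as an uncharacterized protein, led the 123 genes by its mean over the 9 libraries. It held 116, 149 and 22.4 FPKM in Zy14, 1670.5, 2554 and 1463 in Zy24, 713, 747 and 795 in 1C and 2847, 2761 and 3232 in 32C. In the hybrids it held 2862, 3256 and 3201 FPKM in LZy24, against 82.4, 330.4 and 195 in LZy14 (log2 change of 4.14, SE 0.45, limma adjusted p = 1.43e-05, or 8.64e-05 without LZy14 replicate 3), and 2514, 2084 and 2076 in CZy24, against 56.8, 43.1 and 17.6 in CZy14 (log2 change of 5.94, SE 0.45, limma adjusted p = 8.30e-07). It was higher at 24 hours in every library of both crosses. AT4G04090, a BTB/POZ domain protein, a family that includes adaptors of ubiquitin ligases, had a higher mean at each later Col stage, with 170 ± 139 FPKM in Zy14 and 599 ± 101 in Zy24, then 964 ± 247 in 1C and 2511 ± 404 in 32C (SD, n = 3 each).

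DAF1, an F-box gene activated in the male germline by the sperm cell regulator DUO1, ran the other way (chr3:23031531-23033146, plus strand). It held 2015, 3360 and 46.5 FPKM in Zy14, 27.1, 21.0 and 17.0 in Zy24 and 16.0, 19.1 and 7.72 in 1C, and was listed at 0 in EC and in 32C. Zy14 replicate 3, the library low in the whole set, was far below the other pair. In the hybrids DAF1 held 15.03, 10.4 and 8.53 FPKM in LZy24, against 2420, 2236 and 2348 in LZy14 (log2 change of -7.60, SE 0.67, limma adjusted p = 2.91e-06, or 2.44e-05 without LZy14 replicate 3), and 10.9, 0 and 7.72 in CZy24, against 1668, 1478 and 1288 in CZy14 (log2 change of -8.29, SE 0.67, limma adjusted p = 1.36e-06). A list of 6 sperm and pollen genes, summed, held 162 to 196 FPKM in EC, 61.2 to 159 in Zy14 and 5.40 to 6.38 in Zy24, and 4.64 to 16.3 in LZy24, against 192 to 419 in LZy14, and 14.0 to 23.6 in CZy24, against 86.4 to 196 in CZy14. At 14 hours most of that sum was GEX1, which the egg cell also expressed. HAP2 was also found in the egg cell, and reached 16.28 FPKM in EC, 5.43 in Zy14, 11.46 in LZy14 and 10.62 in CZy14. In any library GEX2 reached at most 7.02 FPKM, DUO1 1.67, HTR10 5.63 and the pollen gene VGD1 8.11. VGD1 was at 0 in LZy14 and CZy14. The part of RNA delivered by sperm in the DAF1 values was not tested.

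Among the other genes of highest level were MYB62, an R2R3 MYB factor known from phosphate starvation, and HTA6, a histone H2A. MYB62 held 254, 265 and 254 FPKM in LZy24, against 42.1, 25.4 and 31.9 in LZy14, and 314, 223 and 275 in CZy24, against 16.2, 14.5 and 0 in CZy14. HTA6 held 55.9, 32.0 and 94.9 FPKM in LZy24, against 8.81, 6.41 and 6.61 in LZy14, and 136, 154 and 92.1 in CZy24, against 11.2, 8.99 and 36.0 in CZy14. Both genes were higher at 24 hours in every library, with log2 changes of 2.95 for MYB62 and 2.78 for HTA6 in LZy, and of 5.38 and 2.92 in CZy (limma adjusted p of 0.00920 and 0.000483 in LZy, 0.0256 and 0.002485 without LZy14 replicate 3, and of 0.000132 and 0.000267 in CZy).

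As a group, most of the 123 genes were also on in the hybrids. At least 5 FPKM in all 3 libraries was held by 112 of the 123 genes (91.1%) in LZy24, 98 (79.7%) in LZy14, 113 (91.9%) in CZy24 and 91 (74.0%) in CZy14, where 45.1%, 44.1%, 42.7% and 45.6% of all loci held it. LZy14 gave 98 also without replicate 3, and CZy14 gave 108 without its replicate 3. With a replicate left out, the share of all loci was not counted. Of the 7719 loci expressed throughout, 96.8% held at least 5 FPKM in all 3 LZy24 libraries, 96.2% in LZy14, 92.6% in CZy24 and 96.5% in CZy14. In all 12 libraries 69 of the 123 genes held at least 5 FPKM, and 57 of these did so in 32C as well. The first number was 69 also without LZy14 replicate 3. The share of all loci was not counted for either. The median of the mean FPKM over the 123 genes was 33.0 in LZy24, 27.3 in LZy14, 54.2 in CZy24 and 19.5 in CZy14. The few genes under 1 FPKM in all libraries of a hybrid group were ICE1 and CYP77A4 in LZy14, AT4G39830 and HSFB2A in LZy24, and GAMT2, AT1G20550, AT5G13810 and AT5G50840 in CZy24, where 30.8%, 34.6% and 39.8% of all loci were under 1. No gene was under 1 throughout CZy14, where 26.6% of all loci were. Of the loci expressed throughout, 0.104% were under 1 in LZy14, 0% in LZy24, 0.557% in CZy24 and 0% in CZy14.

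**Figure D4:**
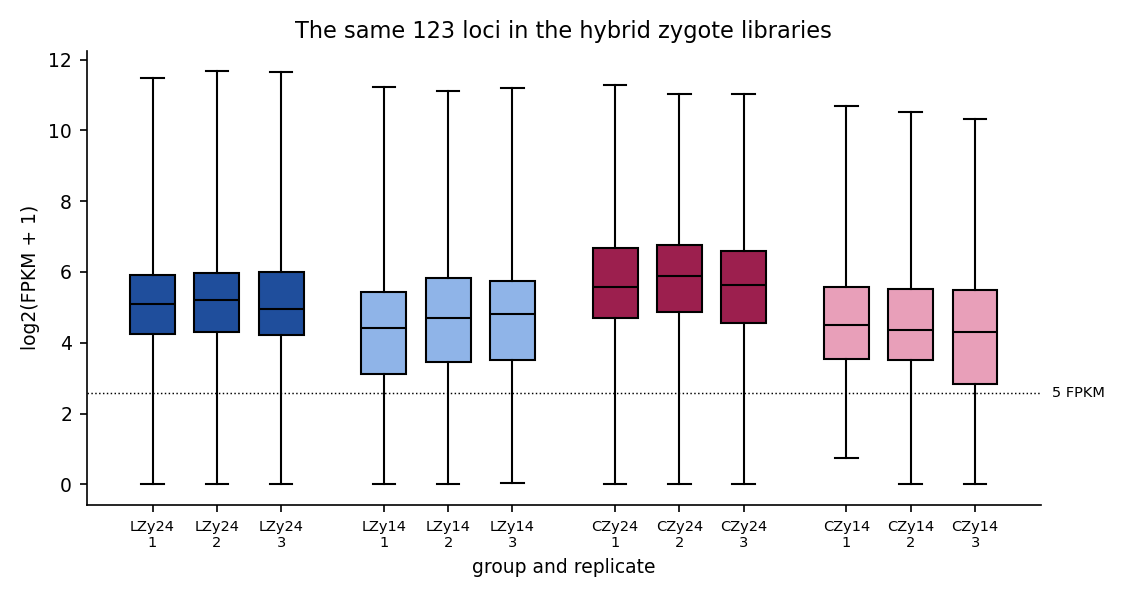
Levels of the 123 genes, as log2(FPKM + 1), in the 12 hybrid zygote libraries. Boxes span the quartiles with the median as a line, whiskers reach the lowest and highest gene, and the dotted line marks 5 FPKM; library medians are 29.8 to 35.9 FPKM in LZy24, 20.3 to 27.4 in LZy14, 46.8 to 57.9 in CZy24 and 18.8 to 21.6 in CZy14.

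Between 14 and 24 hours more of the 123 genes rose than fell in both crosses. Limma was fitted to log2(FPKM + 1) over 17912 genes of the 12 hybrid libraries, all 123 among them, and a call needed a log2 change of at least 1 and an adjusted p (Benjamini-Hochberg over all genes) under 0.05. In LZy24 against LZy14, 47 members were higher and 18 lower, where 18.3% of all genes tested were higher and 19.8% lower. Without LZy14 replicate 3 the counts were 44 and 15, with 16.6% and 15.9% of all genes. In CZy24 against CZy14, 62 members were higher and 15 lower, where 20.0% and 25.2% of all genes were. The members' counts were the same without CZy14 replicate 3, with 3370 and 4270 of all 17452 genes. They were also the same without LZy14 replicate 3, with 3470 and 4368 of all 17658 genes. The median log2 change of the 123 genes was 0.68 in LZy and 1.33 in CZy, against -0.05 and -0.09 over all genes tested. Scaling each library to an equal FPKM sum moved those all-gene medians to -0.26 and -0.30. Members moved to 41 higher and 23 lower in LZy and to 57 and 16 in CZy. Over all genes in LZy this scaling gave 2593 higher and 4312 lower, against 3275 and 3540 as deposited. In CZy it gave 2894 higher and 5241 lower over all genes, against 3580 and 4521 as deposited.

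The same genes rose in both crosses in 39 cases (31.7%), where 9.92% of all genes tested did, 8 were called higher in LZy alone (7.17% of all genes) and 22 in CZy alone (9.46%), and 28 were called in neither cross (39.6%). Without LZy14 replicate 3, 37 rose in both crosses (9.24% of all genes), 7 were called higher in LZy alone (6.53%), 24 in CZy alone (1766 of all 17658 genes) and 32 in neither (42.8%). Without CZy14 replicate 3, 43 rose in both, and the share of all genes was not counted. Genes higher in both crosses included ICE1, AT4G33145, MYB62, the asparaginase ASPGB1, the auxin-responsive SAUR family gene AT2G46690 and GSO2, a receptor kinase needed for the embryo's cuticle. ASPGB1 held 109, 160 and 108 FPKM in LZy24, against 19.6, 9.26 and 15.4 in LZy14 (log2 change of 3.04, SE 0.28, limma adjusted p = 3.91e-06, or 3.24e-05 without LZy14 replicate 3), and 195, 149 and 204 in CZy24, against 3.34, 2.23 and 3.46 in CZy14 (log2 change of 5.52, SE 0.28, limma adjusted p = 3.69e-08). GSO2 held 27.9 to 31.8 FPKM in LZy24, against 1.74 to 2.89 in LZy14, and 52.7 to 57.4 in CZy24, against 4.59 to 11.3 in CZy14.

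Lower at 24 hours in both crosses were 7 genes (5.69%), where 11.1% of all genes tested were. The number was 7 also without LZy14 replicate 3, with 9.25% of all genes. Without CZy14 replicate 3 it was 8, and the share of all genes was not counted. The 7 genes were DAF1, HSFB2A, BAG1, the organ size gene ORS1, the cupredoxin AT4G39830, AT5G10950 of the Tudor/PWWP family and AT5G54560. HSFB2A, a heat shock factor of the repressor class, was listed at 0 in all 3 LZy24 libraries, against 19.8, 39.3 and 27.8 FPKM in LZy14, and held 0, 9.79 and 12.6 in CZy24, against 43.4, 48.9 and 139 in CZy14. AT5G54560 held 0, 2.98 and 0 FPKM in LZy24, against 142, 35.6 and 95.0 in LZy14, and 0, 9.75 and 10.5 in CZy24, against 74.4, 71.2 and 115 in CZy14. In neither gene did the hours overlap. Across the 123 genes, as a description, the 24 minus 14 hour difference of the mean log2(FPKM + 1) in Col had a Pearson r of 0.755 with that in LZy and 0.821 with that in CZy (Spearman 0.703 and 0.784), while over the 7719 loci expressed throughout r was 0.61 and 0.632.

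**Figure D5:**
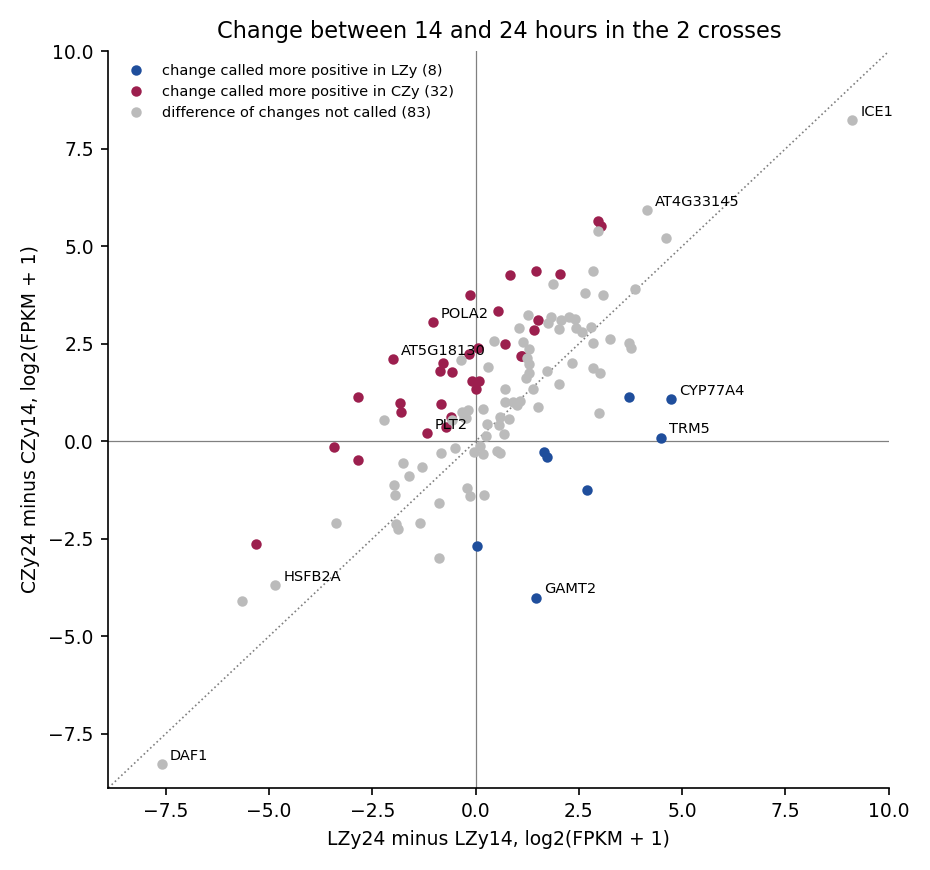
Log2 change from 14 to 24 hours for the 123 genes, LZy24 minus LZy14 across and CZy24 minus CZy14 up, on the log2(FPKM + 1) scale. Blue and red points mark the 8 and 32 genes whose change was called as differing between the crosses, and the dotted line marks equal change; ICE1 is highest and DAF1 lowest in both crosses.

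At 14 hours 17 of the 123 genes were higher and 6 lower in LZy14 than in CZy14, where 4.76% and 7.92% of all genes were. Without LZy14 replicate 3 the counts were 12 and 6, with 2.42% and 5.12% of all genes. Without CZy14 replicate 3 they were 17 and 8, with 934 and 1313 of all 17452 genes. Quantile normalization gave 1143 higher and 1232 lower over all genes, against 852 and 1419 as deposited, and 21 and 7 members. The largest difference was AT1G53903, a DUF581 protein, with 20.9, 40.6 and 33.9 FPKM in LZy14, against 2.38, 1.60 and 1.73 in CZy14 (log2 change of 3.46, SE 0.26, limma adjusted p = 1.74e-05, or 0.000347 without LZy14 replicate 3). AT5G50410, ASPGB1 and AT4G33145 were also higher in LZy14, by 2.39, 1.93 and 2.28. Lower in LZy14 were TRM5, the WD40 protein AT3G18950, NF-YC7, AT4G14740, ACR1 and GSO2. AT3G18950 held 5.15, 15.3 and 9.99 FPKM in LZy14, against 60.5, 57.3 and 56.0 in CZy14 (log2 change of -2.51, SE 0.29, limma adjusted p = 0.000235, or 0.00192 without LZy14 replicate 3).

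At 24 hours the balance lay the other way: 6 members were higher and 28 lower in LZy24 than in CZy24, where 12.3% and 12.1% of all genes were. Without LZy14 replicate 3 in the fit the counts were 5 and 26, with 2038 and 1963 of all 17658 genes. The median log2 change of the 123 genes was -0.42, against 0 over all genes tested. Median of ratios scaling moved these medians to -0.28 and 0.05. It called 7 members higher and 24 lower, with 2470 and 1812 of all 17866 genes. Quantile normalization gave 7 and 22 members, with 2125 and 1880 of all 17912 genes. POLA2, the B subunit of DNA polymerase alpha-primase, which starts DNA replication, held 0.07, 1.78 and 8.30 FPKM in LZy24, against 32.5, 59.8 and 52.0 in CZy24 (log2 change of -3.98, SE 0.61, limma adjusted p = 0.000554). PID, a kinase that acts on PIN auxin carriers, held 29.0, 32.2 and 21.3 FPKM in LZy24, against 98.7, 118 and 107 in CZy24 (log2 change of -1.95, SE 0.35, limma adjusted p = 0.00140). The groups of both genes did not overlap. GAD4, a glutamate decarboxylase, and AT3G17140, of a pectin methylesterase inhibitor family, were also lower in LZy24, by log2 changes of -1.76 and -2.33.

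The 6 genes higher in LZy24 included GAMT2, which methylates and so inactivates gibberellins, AT5G50840, the glutaredoxin family gene AT5G13810, AT5G03610 and AIR12, an auxin-induced membrane protein. AT5G50840, an alpha-taxilin-like gene, held 22.6, 36.4 and 26.1 FPKM in LZy24, against 0.51, 0.90 and 0.51 in CZy24 (log2 change of 4.14, SE 0.73, limma adjusted p = 0.00128). AT5G13810 held 8.90, 13.8 and 8.82 FPKM in LZy24, against 0.99, 0.58 and 0.19 in CZy24 (log2 change of 2.86, SE 0.32, limma adjusted p = 8.20e-05). Both were higher in every LZy24 library than in any CZy24 library. Between the crosses, 2 members were called in the same direction at both hours, AT3G18950 as lower and AT5G03610 as higher in LZy. Another 3, AT1G62410, AT4G33660 and AT5G18130, were higher in LZy14 than in CZy14 and lower in LZy24 than in CZy24. The share of all genes was not counted for either number. Without LZy14 replicate 3 the 14 hour call of AT4G33660 was lost (limma adjusted p = 0.0650).

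The test of the difference itself, the change from 14 to 24 hours in LZy minus that in CZy, called 8 members with the more positive change in LZy and 32 with the more positive change in CZy, where 13.8% and 11.1% of all genes were. Without LZy14 replicate 3 the counts were 6 and 26, with 10.8% and 7.71% of all genes. Without CZy14 replicate 3 they were 10 and 33, with 2535 and 2153 of all 17452 genes. The median of this difference was -0.73 over the 123 genes and 0.03 over all genes tested. AT5G18130, uncharacterized, was the only member called in opposite directions: it held 16.5, 13.2 and 13.5 FPKM in LZy24, against 59.7, 60.9 and 61.1 in LZy14, and 74.1, 82.0 and 67.7 in CZy24, against 17.5, 9.18 and 28.1 in CZy14. Its levels in Col were 53.5, 67.7 and 20.3 FPKM in Zy14 and 74.8, 52.7 and 49.8 in Zy24, and it was listed at 0 in 32C.

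Other members with a described role showed further patterns. GPX2, a glutathione peroxidase, SOS5, a fasciclin-like arabinogalactan protein, and AT5G03795, of the exostosin family, were higher at 24 hours in both crosses. CYP77A4, a cytochrome P450 known to affect cotyledon patterning that overlaps AT5G04670 on the opposite strand, held 22.9, 30.5 and 34.9 FPKM in LZy24, against 0.04, 0.20 and 0.15 in LZy14, and 16.6, 16.4 and 9.12 in CZy24, against 16.04, 18.03 and 0 in CZy14. GAMT2 held 11.8, 16.6 and 10.2 FPKM in LZy24, against 13.9, 0 and 7.21 in LZy14, and 0, 0.25 and 0.72 in CZy24, against 38.4, 45.3 and 3.91 in CZy14. In both genes single 14 hour libraries stood far from their group. The calcium sensor gene CML23, the xanthine/uracil permease AT2G05760, the myosin gene ATM2, the RNA-binding protein gene RBP47C, the kinase gene AT4G17660 and IQD17 all lay between 1.23 and 153.6 FPKM in every zygote and embryo library.

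Just inside the rule stood AT2G05760, AT2G41475 (an embryo-specific protein 3) and AT5G54970, with lowest values of 5.01, 5.06 and 5.06 FPKM over the 9 libraries. Just outside stood the terpene synthase-like AT1G70080, PDF2 and AT1G58420, with lowest values of 4.97, 4.90 and 4.87. On the side of the egg cell limit, CAT3 and the histone gene HTB2 missed it with highest EC values of 1.06 and 1.07 FPKM.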

How the data were processed

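RNA-seq of 27 libraries (9 groups of 3) was analysed. Per the labels' protocols, mRNA was captured on Dynabeads and amplified with SMART-Seq v4; per the submitters' processing notes, TopHat2, RSEM and the TAIR10 build were used, with versions not given in the sources used here. The deposited FPKM values are gene levels rounded to hundredths, listed from 0.01 upward; a gene missing from a file was taken as 0. They hold no read counts, so depth and counting error are unknown. Libraries listed 14902 to 20062 loci and summed to 746880 to 940207 FPKM.

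The members and gene lists were chosen with earlier results of these data known. EC, Zy14, Zy24 and 1C values chose the members and are described by values alone. Limma 3.58.1 in R 4.3.3 was fitted to log2(FPKM + 1) of the 12 hybrid libraries (genes of at least 1 FPKM in 3 libraries, 17912 genes) with a variance trend and robust empirical Bayes; adjusted p-values are Benjamini-Hochberg over all genes. The log2(FPKM + 1) scale understates the change of low genes. The test script was tested on simulated data. Gene names and promoters come from RefSeq's TAIR10.1, joined by locus identifier, which matched 24511 of 24607 loci. Named genes are the 10 of highest level, members of the lists, up to 5 per direction and contrast, the 5 at each end of 32C minus 1C, those nearest the rule's limits and the 4 highest per product class; BAG1, AT5G10950, ORS1, GSO2, TY1 and the other members of small counts were named after their values were seen. Alternatives were other pseudocounts, filters, scalings, a wider fit, a replicate block and leaving out each library.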

Additional observations from a re-analysis of the deposited data

Results flagged for a closer look

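The change from 14 to 24 hours differed between the crosses, by the test of the difference itself in limma, for these genes among those with the largest such difference. More positive in LZy than in CZy were GAMT2 by 5.47, TRM5 by 4.39, AT5G50840 by 3.93, CYP77A4 by 3.65 and AT5G13810 by 2.73 on the log2 scale. More positive in CZy were AT5G18130, POLA2, AT3G27640, AT3G01860 and AT1G62410, with differences of -4.10, -4.08, -3.98, -3.89 and -3.45. POLA2, of the DNA polymerase that starts replication, held 0.07, 1.78 and 8.30 FPKM in LZy24, against 4.91, 5.59 and 5.15 in LZy14, and 32.5, 59.8 and 52.0 in CZy24, against 5.62, 5.72 and 3.32 in CZy14. CYP77A4 was no longer called without LZy14 replicate 3 (limma adjusted p = 0.0781), nor with any other single library left out except CZy14 replicate 3; over its 22 alternatives the limma adjusted p was 8.31e-05 to 0.128. The cause was not tested. The other 9 genes kept their call without that library.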

How the results depend on the processing

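FPKM without counts gives no depth, so no counting limit can be set, and with 3 libraries a group the spread is estimated over all 4 hybrid groups together. Over 50 tests of named genes, 1080 of 1100 values under the alternatives kept their direction and side of the threshold, 20 lost the call and 0 reversed; 44 tests kept theirs under every alternative. Those that lost it at least once were CYP77A4 and AT5G50840 (difference between crosses), GAMT2 (LZy24 against CZy24), and AT3G01860, AT4G20700 and AT4G14740 (LZy14 against CZy14).

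Over all genes, LZy14 against CZy14 called 2271 genes, 1301 with a pseudocount of 5, and 1305 to 2503 with 1 library left out, the lowest without CZy14 replicate 2 and 1332 without LZy14 replicate 3. LZy24 against CZy24 called 4384 genes, 2814 with a pseudocount of 5 and 3219 to 4695 with 1 library left out. The rule takes 251 loci with a floor of 2 FPKM, 57 with a floor of 10, and 123 to 191 with 1 library left out, the highest without Zy14 replicate 3. The causes were not tested.

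Deviations from the group mean had correlations of -0.03 to 0.07 between same-numbered libraries of the hybrid groups. With 3 libraries a group, this cannot show whether the numbers pair samples, and no label says what they share. With a replicate block, members higher and lower were 48 and 19 in LZy24 against LZy14, 63 and 16 in CZy24 against CZy14, 16 and 7 in LZy14 against CZy14, 7 and 28 in LZy24 against CZy24, and 9 and 31 for the difference between crosses. Over all 17912 genes they were, in the same order, 3257 and 3514, 3574 and 4551, 799 and 1345, 2169 and 2162, and 2370 and 1895.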
